A study of Homo sapiens with 6 samples.

Results

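Integrins and laminins, the receptor chains and the basement membrane chains of cell adhesion, were followed by RNA-seq of PA-1 and TOV21G, a pair of human ovarian tumour lines, with and without knockdown of the RNA-binding protein MEX3A (6 libraries). The members were taken by gene symbol, and they were chosen with earlier results of these data known. They comprise every integrin alpha chain, every integrin beta chain and every laminin alpha, beta and gamma chain in the gene tables. This gave 38 of 39282 gene entries (18 integrin alpha, 8 integrin beta and 12 laminin genes). Of these, 32 passed the filter on low counts (13 alpha, 7 beta and 12 laminin genes) among 16855 genes tested. ITGA4, ITGA11, ITGAD, ITGAL, ITGAX and ITGB7 did not pass it, and ITGAM, which passed, also stayed under a mean of 1 CPM (counts scaled to library size) in both lines.

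PA-1 is a line labelled as ovarian teratocarcinoma and TOV21G a line labelled as ovarian clear cell carcinoma, although the source label of both reads ovarian surface epithelial cells. Each line was infected with lentivirus carrying a scramble hairpin (sh-Ctrl), MEX3A hairpin 1 (sh-MEX3A#1) or MEX3A hairpin 2 (sh-MEX3A#2), and each of these 3 infections gave 1 library, so all libraries share lentiviral infection and none is from uninfected cells. The 2 knockdown libraries of a line served as its replicates although they carry different hairpins. The p-values thus measure the spread between hairpins, estimated jointly over both lines. The control was 1 library per line, so that condition and library cannot be told apart. The lines were grown in different media, so a difference between lines cannot be told apart from a difference between media.

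Integrins are heterodimers of 1 alpha and 1 beta chain that span the plasma membrane and tie the actin cytoskeleton to the extracellular matrix, and the alpha chain largely sets whether the pair binds laminin, collagen or ligands with an RGD motif such as fibronectin and vitronectin. Laminins are heterotrimers of an alpha, a beta and a gamma chain, secreted as assembled trimers and laid down in basement membranes, where the alpha chain carries the main integrin-binding domain. In epithelial tumours these chains are studied for attachment, migration and survival signals from the matrix.

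Summed counts were 14654619 to 19495159 per library, so that 3 counts, the floor used here for a gene at 0, correspond to 0.153 to 0.202 CPM (rounded counts scaled to the TMM-adjusted total of the library). MEX3A stood at 137 CPM in the PA-1 control against 41.2 and 54.9 CPM with hairpins 1 and 2, and at 78.3 CPM in the TOV21G control against 40.1 and 33.1 CPM. The 8 teratocarcinoma markers summed to 3251 to 4184 TPM (the deposited level per transcript length) in PA-1 and to 22.6 to 54.6 TPM in TOV21G. Of the 10 clear cell carcinoma markers, SPP1 made up most of the sum in the TOV21G control (9013 of 9572 TPM). The other 9 summed to 560, 1270 and 1039 TPM in TOV21G and 530, 608 and 796 TPM in PA-1, and KRT8, KRT18 and ARID1A had more CPM in the PA-1 control than in the TOV21G control. Of that list, NAPSA was at 0.455 CPM in the TOV21G control.

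Levels were compared between genes only as TPM. ITGB1, the partner of most alpha chains, was the highest member in both lines, at 407 ± 93.0 TPM in PA-1 and 1795 ± 573 TPM in TOV21G (mean ± SD over the 3 libraries of a line). LAMC1, the gamma chain of most laminins, followed at 224 ± 36.4 TPM in PA-1 and 723 ± 249 TPM in TOV21G. Next in PA-1 stood ITGA6 at 175 ± 10.99 TPM and LAMB1 at 126 ± 4.61 TPM, and next in TOV21G stood ITGA3 at 503 ± 278 TPM and LAMB1 at 399 ± 58.3 TPM. The libraries of LAMC1 and ITGA6 overlapped in PA-1, and those of LAMC1, ITGA3 and ITGAV, and of ITGA3, LAMB1 and ITGAV, overlapped in TOV21G, so that the order of these genes does not differ beyond their spread. A mean of 10 TPM or more was reached by 14 members in PA-1 and 19 in TOV21G. All members together summed to 1093, 1368 and 1492 TPM in the control, hairpin 1 and hairpin 2 libraries of PA-1, and to 4062, 4650 and 5951 TPM in those of TOV21G.

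The level of the lines differed for 21 of the 32 members tested by edgeR's quasi-likelihood test at an adjusted p under 0.05, with 17 higher in TOV21G and 4 higher in PA-1. Over all genes the same test called 40.6%, with 3366 genes higher in TOV21G and 3471 higher in PA-1. With the 2 control libraries alone set against each other, 1 library against 1 and with the spread taken from the knockdown libraries, 12 members and 14.9% of all genes passed. The members higher in PA-1 were ITGA2B, ITGA8, ITGA9 and LAMA2, and those higher in TOV21G included 6 of the 7 beta chains and 8 of the 12 laminin chains tested. ITGA8, an RGD-binding alpha chain, was at 0 in every TOV21G library, and its pooled 3.36 CPM in PA-1 was at least 50.9-fold higher than the floor of 3 counts over the 3 TOV21G libraries. ITGA9, whose pair with ITGB1 binds tenascin and osteopontin, stood at 13.8, 16.1 and 12.3 CPM in PA-1 and at 0.390, 0.132 and 0.403 CPM in TOV21G (log2 difference -5.41 for TOV21G minus PA-1, SE 0.47, adjusted p from edgeR 0.00157).

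No member passed the edgeR test of knockdown against control in PA-1 (0% of all genes called) or in TOV21G (0%), and none passed the test of the difference between the lines' knockdown effects (0%). At an unadjusted p under 0.05 edgeR gave 1, 2 and 1 members in these comparisons, against 434, 1612 and 642 of all genes. DESeq2 called no member in PA-1 (31 of all genes) or for the difference (18 of all genes), and ITGA5 in TOV21G (adjusted p 0.0171, among 210 of all genes). The fit had 2 residual degrees of freedom. The control library enters both hairpin differences of a line, so the hairpins are not independent of each other.

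In PA-1, 17 of 32 members were above the control with both hairpins by any size (33.8% of all genes) and 6 were below it with both (34%). In TOV21G, 9 were above it with both (31.3%) and 5 below it with both (31.9%). A difference of at least 2-fold above the control with both hairpins was seen in PA-1 for ITGA3, ITGA10 and ITGAM (3.36% of all genes), and in TOV21G for ITGA5 (4.26%). ITGA10 and ITGAM rest on 1 count in the PA-1 control, under the floor of 3 counts, and on log2 of TPM plus 1 only 1 member was left in PA-1. At least 2-fold below with both hairpins stood no member in PA-1 (0.682%) and LAMC3 in TOV21G (3.36%). Median hairpin differences over the members were 0.16 and 0.37 on the log2 CPM scale in PA-1 for hairpins 1 and 2, and -0.16 and 1.05 in TOV21G, beside 0 for each of these over all genes tested.

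**Figure D1:**
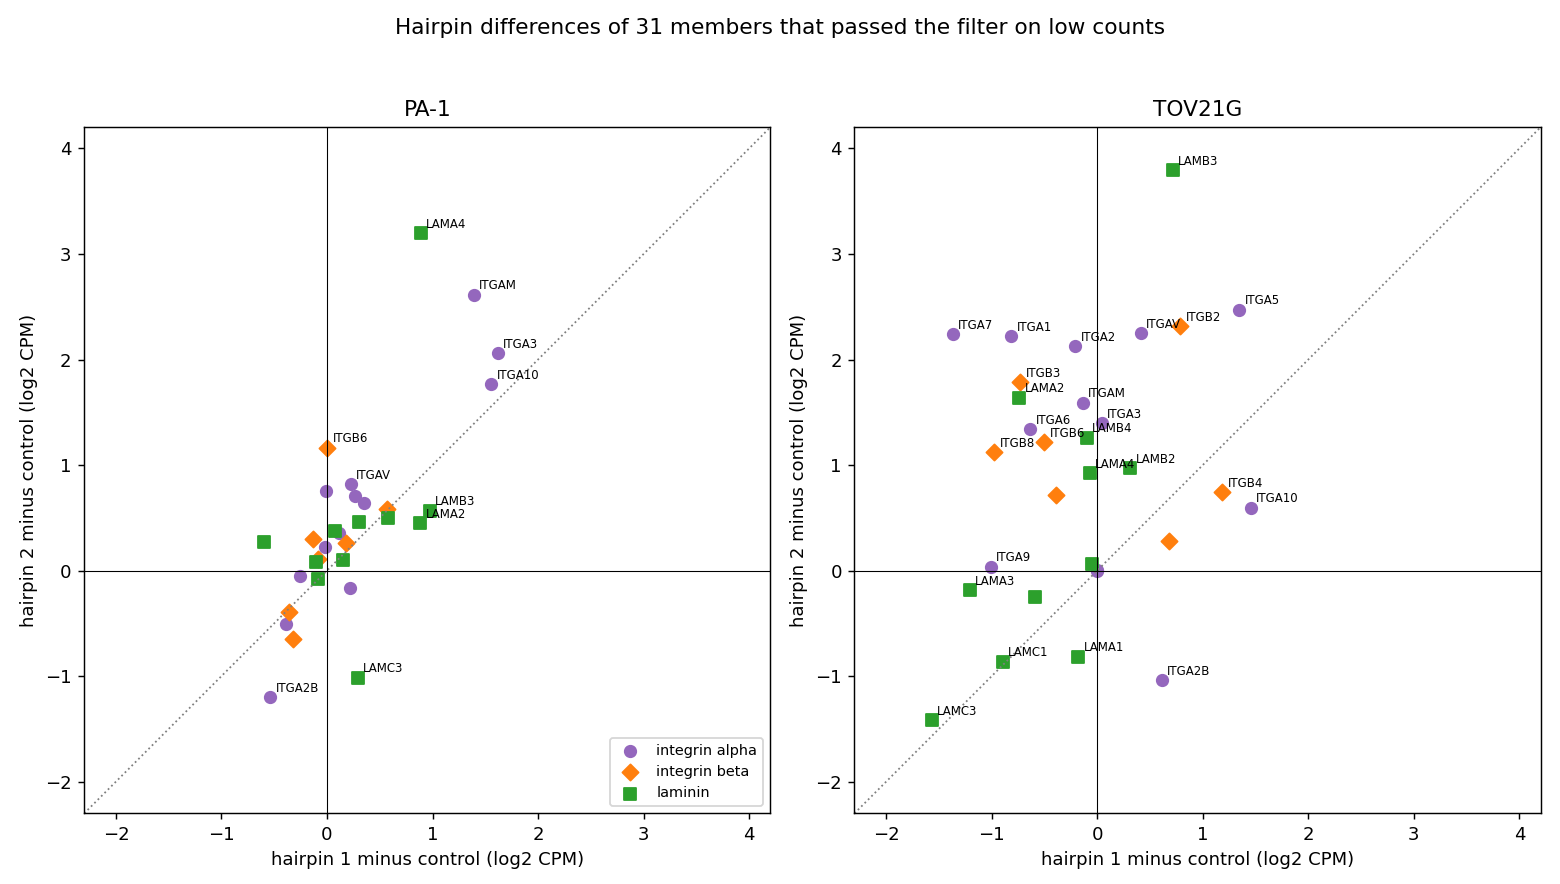
Hairpin 2 minus control (vertical axis) against hairpin 1 minus control (horizontal axis), both as log2 CPM with a prior count of 2, for 31 of the 32 members that passed the filter; each point is 1 gene, coloured by chain type, and the dotted line marks equal differences. In PA-1 most points lie near the dotted line, while in TOV21G 18 of those plotted lie at least 1 log2 unit above it.

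The 2 hairpins differed from each other most in TOV21G. There, 19 of 32 members were at least 2-fold higher with hairpin 2 than with hairpin 1 (11.3% of all genes) and 1, ITGA2B, at counts near 0, was at least 2-fold lower (8.94%). The 19 include ITGA9, ITGAM and LAMB4, which had 2, 7 and 10 counts with hairpin 1 and 6, 27 and 28 with hairpin 2. In PA-1 the same comparison gave 4 members higher, ITGAM, ITGB6 and LAMA4 among them (3.52%), and 1 lower, LAMC3 (2.85%). LAMC3 had 3 and 0 counts and ITGB6 0 and 3 counts with hairpins 1 and 2 in PA-1. As log2 of TPM plus 1 the counts were 12 members in TOV21G (4.76% of all genes) and 2 in PA-1 (0.926%), on a scale that moved the median of all genes by -0.12 in TOV21G. In TOV21G, 16 members lay below the control with hairpin 1 and above it with hairpin 2 (16.1%), and in PA-1 7 did (15.1%). These counts include ITGAE, which stayed between 4.29 and 4.30 CPM in TOV21G, and ITGB6, which was at 0 in the PA-1 control and hairpin 1 libraries. This pattern was picked out after the values were seen, and it carries no test, since each hairpin has 1 library per line. MEX3A itself stood at 40.1 CPM with hairpin 1 and 33.1 CPM with hairpin 2 in TOV21G, and whether the difference between the hairpins follows from the depth of knockdown, from the hairpin sequence or from the library was not tested.

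The laminin-binding alpha chains are ITGA3, ITGA6 and ITGA7. ITGA3, which pairs with ITGB1 to bind laminins of the LAMA3 and LAMA5 classes, stood at 19.7 CPM in the PA-1 control and at 60.7 and 82.4 CPM with hairpins 1 and 2. Both knockdown libraries lay above the control (log2 fold change 1.86, SE 0.64, adjusted p from edgeR 1, unadjusted p 0.0322). In TOV21G ITGA3 stood at 751 CPM in the control, 774 CPM with hairpin 1 and 1977 CPM with hairpin 2 (log2 fold change 0.87, SE 0.60, adjusted p from edgeR 0.67). There the hairpin 1 library was close to the control (0.04 on the log2 scale) and hairpin 2 stood 1.40 log2 units above it. ITGA6, the alpha chain that can pair with either ITGB1 or ITGB4, stood at 432, 362 and 417 CPM in PA-1 (log2 fold change -0.15, SE 0.76) and at 170, 110 and 431 CPM in TOV21G (0.67, SE 0.79). In TOV21G its hairpin libraries lay on either side of the control. ITGA7, the laminin receptor chain best known from muscle, stood at 36.0, 35.7 and 60.9 CPM in PA-1 (log2 fold change 0.43, SE 1.30) and at 9.74, 3.69 and 46.6 CPM in TOV21G (1.37, SE 1.39). ITGA7 thus also lay below the TOV21G control with hairpin 1 and above it with hairpin 2.

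The collagen-binding alpha chains are ITGA1, ITGA2, ITGA10 and ITGA11, all of which pair with ITGB1. ITGA1 stood at 38.8, 38.3 and 45.5 CPM in PA-1 (log2 fold change 0.11, SE 1.10) and at 16.4, 9.30 and 77.1 CPM in TOV21G (1.39, SE 1.18). ITGA2 stood at 16.2, 20.7 and 25.4 CPM in PA-1 (log2 fold change 0.50, SE 0.92) and at 37.3, 32.3 and 163 CPM in TOV21G (1.39, SE 0.95). In TOV21G both genes were lowest with hairpin 1 and highest with hairpin 2, by 2.22 and 2.13 log2 units over the control. ITGA1 and ITGA2 lie 30.1 kb apart on the plus strand of chromosome 5, and PELO lies inside ITGA1 on the same strand, so the counts of ITGA1 are less certain. ITGA10 was at 0.0629, 0.425 and 0.509 CPM in PA-1 and at 0.714, 2.18 and 1.14 CPM in TOV21G, where its mean was 1 to 5 CPM, and ITGA11 stayed under 1 CPM in every library.

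The alpha chains that bind RGD motifs are ITGAV, ITGA5, ITGA8 and ITGA2B. ITGA5, which with ITGB1 forms the classical fibronectin receptor, stood at 39.4 CPM in the TOV21G control, 100 CPM with hairpin 1 and 219 CPM with hairpin 2. Both knockdown libraries lay above the control, by 1.34 and 2.47 log2 units (log2 fold change 2.02, SE 0.54, adjusted p from edgeR 0.422, unadjusted p 0.0132). In PA-1 ITGA5 stood at 49.7, 54.0 and 63.8 CPM (log2 fold change 0.24, SE 0.50), and the difference between the lines' effects gave an unadjusted edgeR p of 0.0519 and an adjusted p of 1. ITGAV, the alpha chain shared by pairs with ITGB1, ITGB3, ITGB5, ITGB6 and ITGB8, stood at 531, 708 and 2528 CPM in TOV21G (log2 fold change 1.61, SE 0.81, adjusted p from edgeR 0.592). In PA-1 it stood at 188, 220 and 331 CPM (log2 fold change 0.55, SE 0.77). In both lines ITGAV was lowest in the control and highest with hairpin 2. ITGA8 ranged from 2.90 to 4.15 CPM in PA-1, and ITGA2B, the platelet fibrinogen receptor chain, from 1.22 to 2.96 CPM there, both lowest with hairpin 2.

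**Figure D2:**
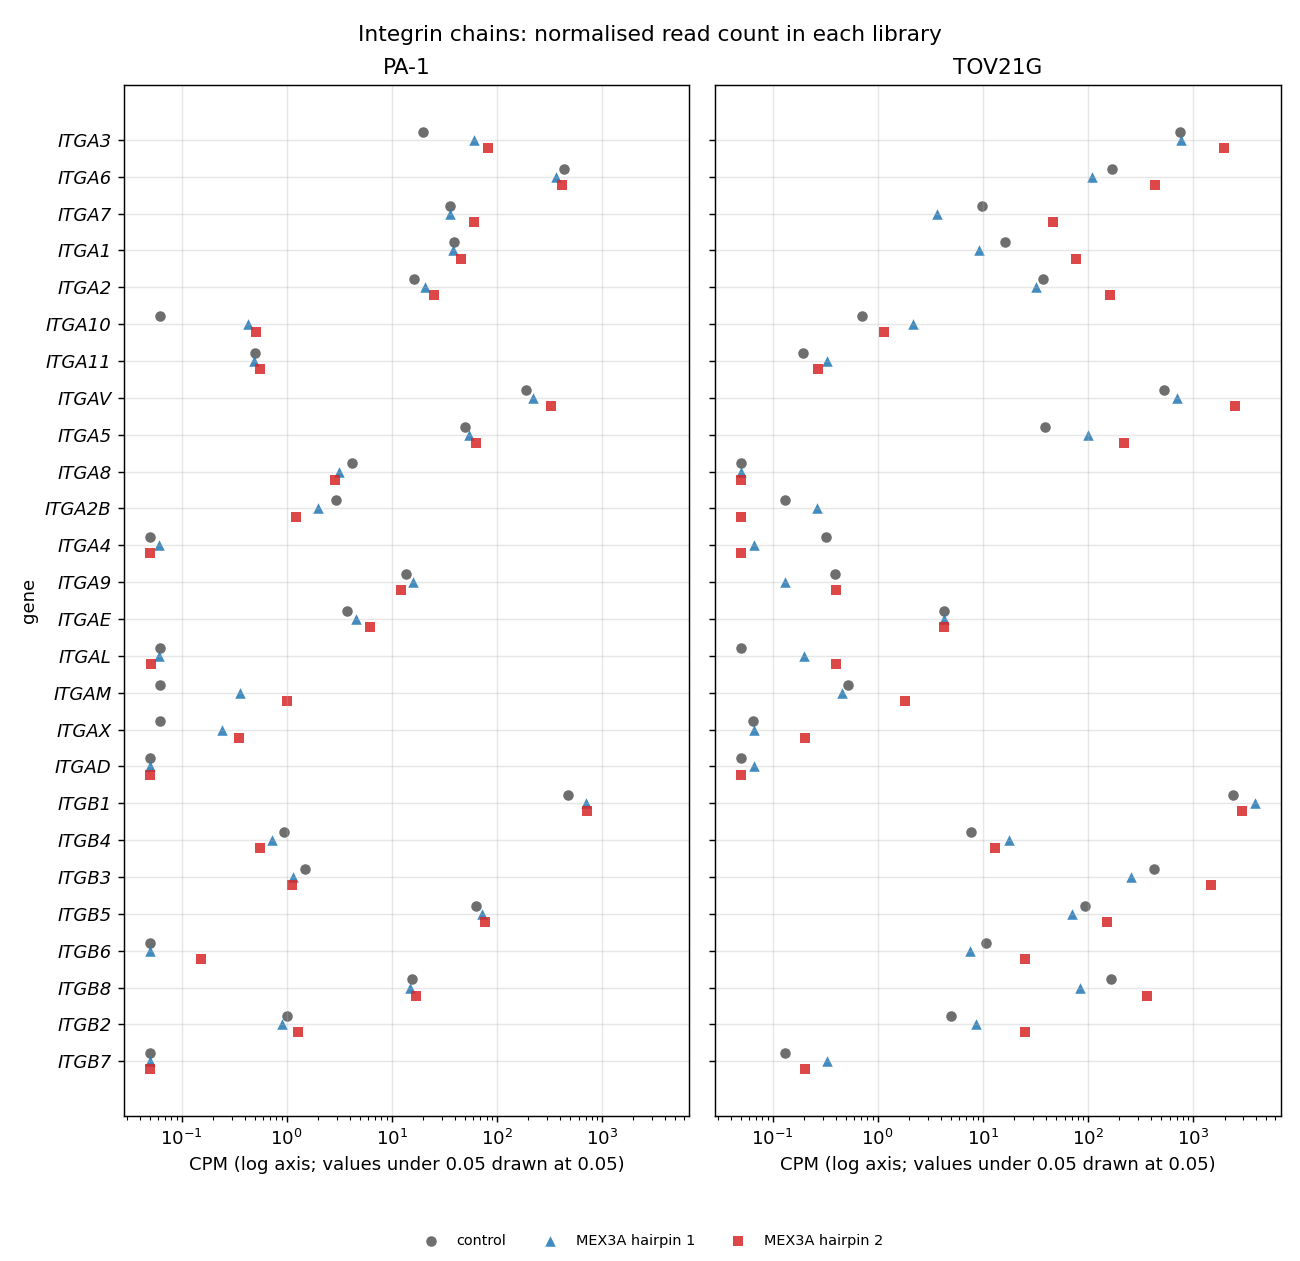
CPM (log axis, values under 0.05 drawn at 0.05) of the 26 integrin genes in each library, PA-1 on the left and TOV21G on the right; grey circles are the controls, blue triangles hairpin 1 and red squares hairpin 2. In TOV21G the red squares of ITGA1, ITGA2, ITGA6, ITGA7, ITGB3 and ITGB8 lie to the right of the control and the blue triangles to its left.

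Among the beta chains, ITGB1 stood at 481, 713 and 722 CPM in PA-1 (log2 fold change 0.58, SE 0.26) and at 2420, 3882 and 2938 CPM in TOV21G (0.49, SE 0.26, adjusted p from edgeR 0.601). It lay above the control with both hairpins in both lines, and in TOV21G it was higher with hairpin 1 than with hairpin 2, the reverse of most alpha chains. ITGB4, which pairs with ITGA6 alone and anchors hemidesmosomes, stood at 0.944, 0.728 and 0.559 CPM in PA-1 and at 7.73, 17.7 and 13.0 CPM in TOV21G (log2 fold change 0.99, SE 0.41, adjusted p from edgeR 0.535). Both hairpins lay below the control in PA-1, at 15, 12 and 11 counts, and above it in TOV21G.

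The RGD-binding beta chains that pair with ITGAV were all highest with hairpin 2 in TOV21G. ITGB3, part of the vitronectin receptor, stood at 430, 259 and 1484 CPM there (log2 fold change 1.02, SE 0.98, adjusted p from edgeR 0.761), and at no more than 1.51 CPM in PA-1. The lines differed in ITGB3 by 8.86 on the log2 scale (SE 1.05, adjusted p from edgeR 0.00347). ITGB8, whose pair with ITGAV binds latent TGF-beta, stood at 168, 85.1 and 365 CPM in TOV21G (log2 fold change 0.43, SE 0.82) and at 15.7, 14.8 and 16.9 CPM in PA-1 (0.02, SE 0.83). ITGB5, another vitronectin-binding chain, stood at 93.5, 71.2 and 154 CPM in TOV21G (log2 fold change 0.26, SE 0.48) and at 63.6, 72.1 and 76.5 CPM in PA-1 (0.22, SE 0.48). ITGB6, the epithelial partner of ITGAV, stood at 10.8, 7.58 and 25.3 CPM in TOV21G (log2 fold change 0.61, SE 0.88) and was at 0, 0 and 0.153 CPM in PA-1. Each of these 4 beta chains lay below the TOV21G control with hairpin 1 and above it with hairpin 2.

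Chains of leukocyte integrins were near the floor, with 2 exceptions. ITGB2, the beta chain shared by ITGAL, ITGAM, ITGAX and ITGAD, stood at 5.0, 8.70 and 25.4 CPM in TOV21G (log2 fold change 1.77, SE 0.75, adjusted p from edgeR 0.542) and at 0.910 to 1.27 CPM in PA-1. ITGAE, which pairs with ITGB7 to bind E-cadherin, ranged from 3.78 to 6.26 CPM in PA-1 and from 4.29 to 4.30 CPM in TOV21G. P2RX5 overlaps ITGAE on the same strand, so the counts of ITGAE are less certain. The possible partners of ITGB2 were low: ITGAM reached 1.81 CPM with hairpin 2 in TOV21G, ITGAL 0.403 CPM, ITGAX 0.202 CPM, and ITGAD was at 0 in 5 of the 6 libraries. ITGB7 and ITGA4, which pair on lymphocytes, reached 0.33 and 0.325 CPM. The 10 leukocyte markers summed to 3.08 to 5.11 TPM in PA-1 and 1.14 to 1.58 TPM in TOV21G, 2 of 10 passed the filter (CORO1A and LCP1), and PTPRC (CD45) was at 0 in PA-1 and at most 0.134 CPM in TOV21G. Of the 9 platelet and endothelial markers, GP9 and PF4 were at 0 in every library, PECAM1, KDR and TEK were present in PA-1, and the sums were 83.7 to 132 TPM in PA-1 and 1.78 to 2.08 TPM in TOV21G.

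Of the laminin alpha chains, LAMA1, the chain of embryonic basement membranes, stood at 191, 212 and 206 CPM in PA-1 (log2 fold change 0.13, SE 0.33) and at 631, 558 and 359 CPM in TOV21G (-0.46, SE 0.32). LAMA4, found in vessel and mesenchymal basement membranes, stood at 9.13 CPM in the PA-1 control, 17.0 CPM with hairpin 1 and 84.7 CPM with hairpin 2 (log2 fold change 2.48, SE 1.09, unadjusted p from edgeR 0.071, adjusted p 1). In TOV21G it stood at 66.8, 63.6 and 127 CPM (0.51, SE 0.97). LAMA4 was thus highest with hairpin 2 in both lines, by 3.20 log2 units over the control in PA-1. Fibroblast markers, 5 of 7 past the filter with FAP at 0 in all but 1 library, summed to 91.6, 145 and 193 TPM in the PA-1 libraries and to 5.87, 44.2 and 68.7 TPM in the TOV21G ones, of which COL1A1 gave 3.10, 40.5 and 63.5 TPM in TOV21G. Without COL1A1 the sums were 57.4, 71.2 and 145 TPM in PA-1 and 2.77, 3.75 and 5.16 TPM in TOV21G. THY1 alone gave most of the PA-1 sums, at 43.3, 58.8 and 133 TPM. In TOV21G THY1 lay below its control (0.44, 0.17 and 0.06 TPM), at 15, 5 and 2 counts. PDGFRB lay below its control in PA-1 (5.78, 2.82 and 3.38 TPM), where PDGFRA stood at 8.21, 9.19 and 8.63 TPM. Of the 9 platelet and endothelial markers, 6 passed the filter. In PA-1, 2 stood above and 2 below the control with both hairpins (33.8% and 34% of all genes). Above it were KDR at 46.9, 51.3 and 132 CPM and CDH5 at 9.13, 16.4 and 28.8 CPM. Below it were VWF at 7.43, 3.09 and 2.64 CPM and GP1BA at 2.77, 0.971 and 1.78 CPM. PECAM1 stood at 74.5, 51.8 and 82.1 CPM and TEK at 27.7, 29.9 and 21.9 CPM. The list summed to 88.7, 83.7 and 132 TPM in PA-1, against 1.78 to 2.08 TPM in TOV21G. The part of either list in the LAMA4 values was not tested. LAMA5, the broadly expressed epithelial alpha chain, stood at 119, 112 and 113 CPM in PA-1 (log2 fold change -0.08, SE 0.23) and at 163, 158 and 171 CPM in TOV21G (0.01, SE 0.23). Its libraries were the closest to their control of the laminin alpha chains. LAMA2, the muscle laminin alpha chain, stood at 10.95, 20.3 and 15.0 CPM in PA-1 (log2 fold change 0.69, SE 0.91) and at 0.923 to 5.31 CPM in TOV21G.

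**Figure D3:**
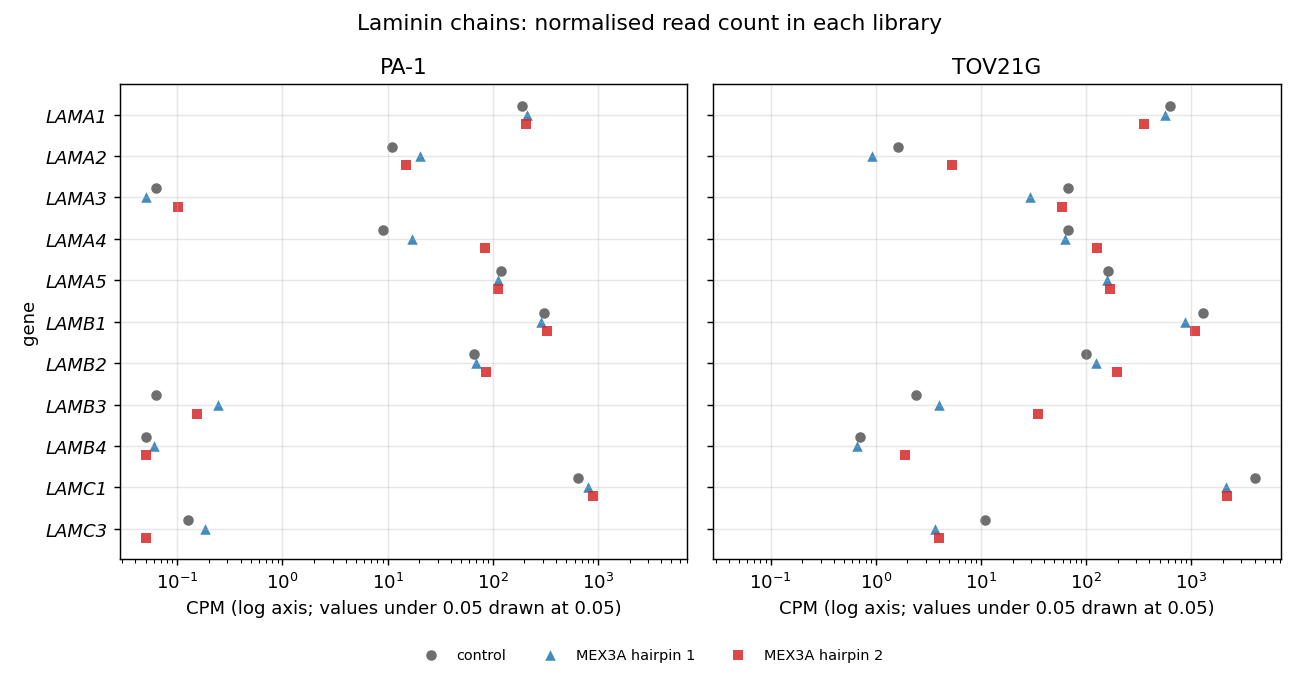
CPM (log axis, values under 0.05 drawn at 0.05) of 11 of the 12 laminin genes in each library, PA-1 on the left and TOV21G on the right; grey circles are the controls, blue triangles hairpin 1 and red squares hairpin 2. LAMC1 lies to the left of the control with both hairpins in TOV21G and to the right of it in PA-1, and LAMA4 lies to the right with both hairpins in PA-1.

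LAMB1, the beta chain of laminins with LAMA1 or LAMA4, stood at 310, 289 and 328 CPM in PA-1 (log2 fold change -0.01, SE 0.26) and at 1304, 866 and 1094 CPM in TOV21G (-0.41, SE 0.26). LAMB2, the beta chain of synaptic and glomerular laminins, stood at 65.8, 69.35 and 85.4 CPM in PA-1 (log2 fold change 0.23, SE 0.36) and at 101, 125 and 198 CPM in TOV21G (0.68, SE 0.37). The 2 beta chains lay on different sides of the control in TOV21G, LAMB1 below it and LAMB2 above it with both hairpins. LAMB4, which lies 8.5 kb from LAMB1 on chromosome 7, had 1 count or fewer in each PA-1 library and 0.659 to 1.88 CPM in TOV21G.

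LAMC1 was the member with the smallest unadjusted edgeR p of the knockdown comparisons. It stood at 4013 CPM in the TOV21G control and at 2160 and 2208 CPM with hairpins 1 and 2, so that both hairpins lay below the control by nearly the same amount, 0.89 and 0.86 on the log2 scale (log2 fold change -0.88, SE 0.21, unadjusted p 0.00798, adjusted p 0.397). In PA-1 it stood at 647, 797 and 894 CPM, above the control with both hairpins (log2 fold change 0.38, SE 0.22). LAMC1, LAMA1 and ITGB4 were the members with both hairpins on opposite sides of the control in the 2 lines (14.7% of all genes). LAMC3 stood at 10.98, 3.63 and 4.03 CPM in TOV21G (log2 fold change -1.52, SE 0.73, adjusted p from edgeR 0.574) and had no more than 3 counts per library in PA-1.

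LAMA3 and LAMB3, alpha and beta chains of epithelial anchoring laminins, lay on different sides of the TOV21G control with both hairpins. Both were higher with hairpin 2 than with hairpin 1 there, by 1.02 and 3.08 log2 units. LAMB3 stood at 2.40, 4.02 and 34.9 CPM in TOV21G (log2 fold change 3.01, SE 1.37, adjusted p from edgeR 0.563), and LAMA3 at 67.6, 29.2 and 59.4 CPM there (-0.61, SE 0.54). In TOV21G with hairpin 2, LAMB3 lay above the control by 3.79 log2 units, whereas LAMA3 lay below it by 0.19. In PA-1 LAMA3 and LAMB3 were at 0 to 0.102 and 0.0629 to 0.243 CPM, 0 to 4 counts per library. As TPM, LAMB3 stood at 1.19, 2.32 and 17.4 and LAMA3 at 20.97, 11.5 and 20.95 in TOV21G, so that LAMB3 was the lower of the pair in each library.

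The RefSeq promoter table (GRCh38.p14, 250 bases before each transcription start) held 26 of the 38 members in 33 windows. The AP-1 motif TGANTCA, searched on both strands, was in the windows of LAMA3 and LAMB3 among the 26, that is in 2 of 33 member windows (6.06%) against 6.57% of all 35116 windows. The windows of LAMA3, LAMB3 and LAMC1 are shown because they differ in this motif and in base composition, and they were picked after the values were seen. Capitals mark AP-1 matches and, in the LAMB3 and LAMC1 windows, also GC boxes (GGGCGG or its complement CCGCCC). A GC box was in 17 of 33 member windows (51.5%, from 14 of the 26 members) against 42.6% of all windows. Of LAMA3 only 29 bases around each AP-1 match are shown, chr18:23872884-23872912 and chr18:23872940-23872968, plus strand, with the match starting 125 and 69 bases before the listed start. That start lies inside LAMA3, whose annotated span begins at chr18:23689453, and no window at that first base was listed. The LAMB3 window is the one of its 3 listed starts with the match, chr1:209651375-209651624, minus strand, and the LAMC1 window is chr1:183023170-183023419, plus strand.
LAMA3 far AP-1 match: ctggcacaggcTGACTCAtgtgtgaagtt
LAMA3 near AP-1 match: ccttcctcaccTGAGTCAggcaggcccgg
LAMB3: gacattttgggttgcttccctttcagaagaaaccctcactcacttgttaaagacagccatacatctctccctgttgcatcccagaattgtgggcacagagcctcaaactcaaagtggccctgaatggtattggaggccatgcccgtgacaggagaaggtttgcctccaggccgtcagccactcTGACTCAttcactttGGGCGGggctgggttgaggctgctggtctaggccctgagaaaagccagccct
LAMC1: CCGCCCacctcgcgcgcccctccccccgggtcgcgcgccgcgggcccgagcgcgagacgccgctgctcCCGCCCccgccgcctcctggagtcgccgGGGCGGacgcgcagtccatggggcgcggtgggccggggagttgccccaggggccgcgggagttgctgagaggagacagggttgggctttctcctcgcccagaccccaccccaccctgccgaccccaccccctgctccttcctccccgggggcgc
The LAMB3 window held 1 AP-1 match starting 67 bases before the start and 1 GC box, and was 54.0% G and C. The LAMC1 window held no AP-1 match and 3 GC boxes, and was 79.6% G and C. The TEAD motif GGAATG was in the windows of ITGA5, ITGA10, ITGB1 and LAMA2, that is in 4 of 33 member windows (12.1%) against 11.9% of all windows. These matches are descriptions of the letters in the windows, and no binding was measured.

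Chain pairing was read from TPM, as the lowest chain of each trimer or pair in a library. Trimers are written LM with the numbers of their alpha, beta and gamma chains. For LM111 (LAMA1, LAMB1 and LAMC1) the lowest chain was LAMA1 in every library, at 44.3, 51.9 and 47.4 TPM in PA-1 and 129, 130 and 72.4 TPM in TOV21G. For LM511 and LM521 it was LAMA5, at 21.8 to 23.2 TPM in PA-1 and 28.1, 31.04 and 29.03 TPM in TOV21G, the steadiest of the trimers. For LM411 and LM421 it was LAMA4, at 4.11, 7.57 and 33.4 TPM in PA-1 and 29.6, 29.8 and 52.9 TPM in TOV21G. LAMC1 exceeded the alpha chains of all these trimers in every library, also where it lay below the control in TOV21G, at 615 and 546 TPM with hairpins 1 and 2 against 1007 TPM.

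**Figure D4:**
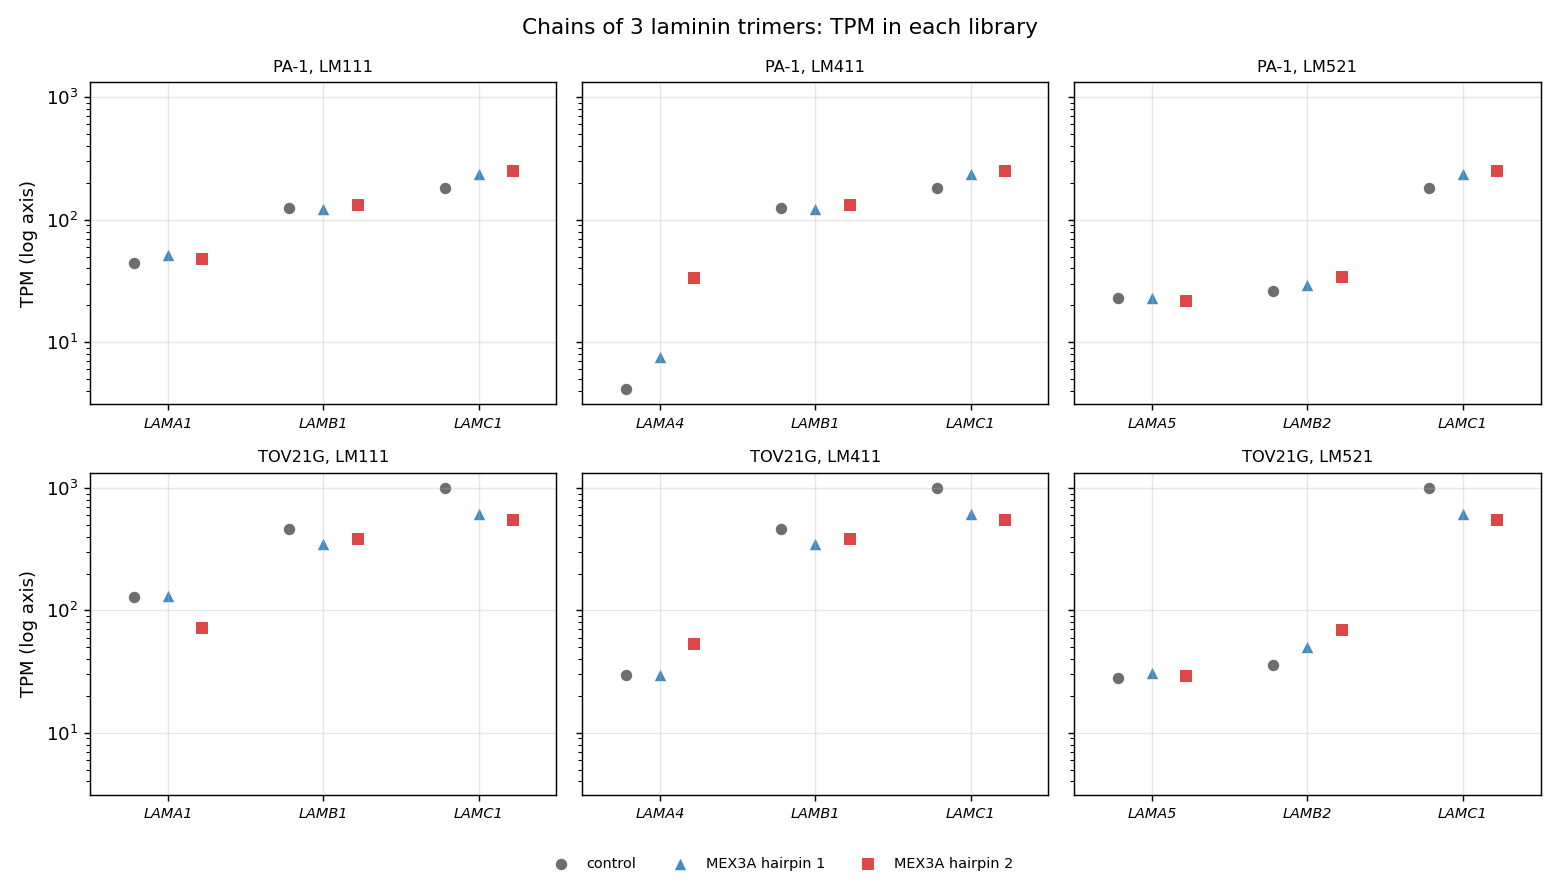
TPM (log axis) of the 3 chains of LM111, LM411 and LM521 in each library, PA-1 in the upper row and TOV21G in the lower; grey circles are the controls, blue triangles hairpin 1 and red squares hairpin 2. The alpha chain is the lowest of the 3 in each trimer shown, in every library.

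For the integrin pairs with ITGB1 the alpha chain was the lowest in every library, so that no single alpha exceeded ITGB1. The alpha chains that can pair with ITGB1 (ITGA1 to ITGA11 and ITGAV) summed to 1.08, 0.737 and 0.939 times the TPM of ITGB1 in the control, hairpin 1 and hairpin 2 libraries of PA-1. In TOV21G the ratios were 0.428, 0.297 and 1.18, lowest with hairpin 1 and highest with hairpin 2. ITGAV, which also pairs with ITGB3, ITGB5, ITGB6 and ITGB8, gave 152 of 573, 229 of 723 and 720 of 1899 TPM of the TOV21G sums. The ratios therefore do not show that partners of ITGB1 alone exceeded it. In the pair of ITGAV and ITGB3 the lower chain was ITGB3, at 0.43 to 0.58 TPM in PA-1 and 146, 99.6 and 496 TPM in TOV21G. For ITGAV with ITGB5 it was ITGB5, at 45.1, 55.7 and 54.6 TPM in PA-1 and 58.8, 50.6 and 98.1 TPM in TOV21G. For ITGA6 with ITGB4 it was ITGB4, at 0.22 to 0.38 TPM in PA-1 and 2.77, 7.20 and 4.59 TPM in TOV21G.

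The genes around these receptors were taken from 4 lists, and edgeR called none of their members in either line (0% of all genes). At an unadjusted p under 0.05 edgeR gave 5 genes in PA-1, all RGD or collagen ligands, and in TOV21G 3 adaptors, 3 basement membrane genes and 3 ligands. Over all 16855 genes tested this cutoff gave 434 in PA-1 and 1612 in TOV21G. DESeq2 called SPP1 and TNC in PA-1 and FN1 and COL1A1 in TOV21G, from the ligand list. Over all genes, 33.8% stood above and 34% below the control with both hairpins in PA-1, and 31.3% above and 31.9% below in TOV21G, which is the background for the counts of each list. Of 23 integrin adaptors and kinases, 21 passed the filter, and with both hairpins 12 stood above and 5 below the control in PA-1 and 14 above and 3 below in TOV21G. Among those with a mean of at least 5 CPM in TOV21G, the 4 that stood furthest above the control there, ranked by the lesser of both hairpin differences, were ACTN1, an actin crosslinker, at 152, 249 and 286 CPM, ZYX, a focal adhesion protein, at 104, 167 and 179 CPM, PXN (paxillin) at 115, 174 and 299 CPM, and PTK2 (focal adhesion kinase) at 179, 267 and 331 CPM. None of these 21 was at least 2-fold above or below the control with both hairpins in either line.

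Of 10 non-laminin basement membrane genes, 9 passed the filter, and in TOV21G 7 stood above the control with both hairpins and none below (31.3% and 31.9% of all genes). COL4A1 and COL4A2, the main type IV collagen chains, stood at 489, 870 and 1825 CPM and at 365, 646 and 1419 CPM there. COL4A5 stood at 198, 404 and 335 CPM and HSPG2 (perlecan) at 280, 396 and 564 CPM. In PA-1 3 of the 9 stood above and 2 below the control, with COL4A2 at 235, 370 and 427 CPM. In the same TOV21G libraries LAMC1, LAMB1 and LAMA1 lay below the control with both hairpins, and LAMB2 and LAMB3 lay above it. Of the 12 laminin genes, 5 stood below and 2 above the control with both hairpins (31.9% and 31.3% of all genes).

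Of 11 RGD and collagen ligands, 9 passed the filter, and in PA-1 8 stood above the control with both hairpins, 5 of them by at least 2-fold (33.8% and 3.36% of all genes). TNC (tenascin-C), a ligand of ITGA9 pairs, stood at 67.4, 572 and 419 CPM, SPP1 (osteopontin) at 166, 894 and 852 CPM, and FN1 (fibronectin), the ligand of ITGA5 with ITGB1, at 156, 591 and 493 CPM in PA-1. In TOV21G 5 stood above the control and 2 below, with COL1A1 at 9.03, 104 and 189 CPM and SPP1 at 6019, 1625 and 3765 CPM. Of 9 non-integrin laminin receptors and tetraspanins, which organise laminin-binding integrins in the membrane, all passed, with 4 above and 3 below the control in PA-1 and none above and 2 below in TOV21G. CD9 stood at 98.5, 67.8 and 64.1 CPM in PA-1, below the control with both hairpins, and at 43.7, 6.13 and 45.4 CPM in TOV21G, where hairpin 1 alone stood apart.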

How the data were processed

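The deposited tables give, per gene and library, RSEM-style estimated counts (expected counts), effective length and TPM, per the file headers. The submitters' processing notes name cutadapt 1.12, STAR 2.5.3a, RSEM 1.2.31, edgeR 3.26.8 and the build hg38. Whether counting used strand is not given in the sources used here, so genes with antisense partners may share reads. Among the members these include LAMC1, ITGA6, LAMA5, ITGB2, ITGB4 and ITGAE. Expected counts were rounded and tested with edgeR 4.0.16 (R 4.3.3; TMM, low counts removed with filterByExpr, quasi-likelihood F test, 4 groups in one fit, Benjamini-Hochberg over 16855 genes, threshold 0.05). The shared biological coefficient of variation was 0.295, against 0.164 for PA-1 and 0.387 for TOV21G with each line fitted alone. In the joint fit the p-values of a line thus do not measure its own spread alone. Differences without a test are log2 CPM with a prior count of 2. Levels between genes use the deposited TPM. DESeq2 1.42.0 was an alternative, and the edgeR step was tested on simulated data. Named members had a mean of at least 5 CPM in a line, those of 1 to 5 CPM were named where they differed by at least 2-fold with both hairpins of a line and otherwise given by range, and those under 1 CPM in both lines were named as such. Pathway examples were ranked by the lesser of both hairpin differences, among genes of 5 CPM or more. The members and lists were chosen with earlier results of these data known. Hairpin numbers mark a shared reagent, not a shared batch. Summed counts were 14654619 to 19495159 per library, and the floor of 3 counts covers counting error only. A laminin chain that enters the counts of members is not reported here by itself.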

Additional observations from a re-analysis of the deposited data

Results flagged for a closer look

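The 3 members LAMA1, LAMC1 and ITGB4 had both hairpins on one side of the control in PA-1 and on the other side in TOV21G, and for each the difference between the lines' effects was tested in the edgeR fit. LAMC1, the gamma chain of most laminins, gave a difference of -1.26 (TOV21G effect minus PA-1 effect, log2, SE 0.306, unadjusted p 0.00852, adjusted p 1). ITGB4, the hemidesmosome beta chain, gave 1.55 (SE 0.631, unadjusted p 0.0563, adjusted p 1) at under 1 CPM in PA-1. LAMA1 gave -0.59 (SE 0.466, unadjusted p 0.261, adjusted p 1). None passed the adjusted threshold, and 14.7% of all genes had such opposite directions.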

How the results depend on the processing

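The counts of members that passed the edgeR test of knockdown against control stayed at 0 under RLE size factors, no filter on low counts and each line fitted alone. In TOV21G, DESeq2 called 1 member (ITGA5, adjusted p 0.0171). Leaving out 1 library at a time gave 0 to 11 members there, 11 without hairpin 1 (1489 genes called, 8.83% of those tested), with ITGA5, ITGAV and ITGB3 at adjusted p of 0.0237, 0.0298 and 0.0245, and with ITGB3 at 1.79, where the lone hairpin 2 library is assumed to vary like the PA-1 libraries. Without hairpin 2, ITGB3 stood at -0.74 in TOV21G, below the control. Members that differed in level between the lines numbered 21 (40.6% of all genes), 17 to 29 with 1 library left out (22.8% to 59%), 23 by DESeq2 (40.2%) and 12 on the control libraries alone (14.9%), with shares over the genes of the reported fit. With the hairpin number as a replicate block, 0, 0 and 0 members passed in the knockdown and difference tests (13, 36 and 0 of all genes). For the level of the lines 26 members passed with that block (48.8% of the genes of the reported fit). The hairpin 2 minus hairpin 1 differences of the 2 lines correlated at 0.236 across genes, a description, since genes are not replicates. Members at least 2-fold above the control with both hairpins numbered 3 in PA-1, 3 to 6 when judged on 1 hairpin and 1 on log2 TPM plus 1, and 1 in TOV21G, 3 to 16 when judged on 1 hairpin. Those 2-fold below numbered 0 to 2 in PA-1 on 1 hairpin, and 2 to 5 in TOV21G, with 0 on log2 TPM plus 1. The shares of all genes on 1 hairpin are not given here, so the counts on 1 hairpin cannot be read as particular to the members. Members 2-fold higher with hairpin 2 than with hairpin 1 numbered 2 in PA-1 and 12 in TOV21G on log2 TPM plus 1, an alternative chosen after seeing the data, as were a prior count of 0.5 and RLE, which gave 19 each in TOV21G. The pseudocount of that scale damps low genes, and its median shift in TOV21G was -0.12. One control library per line limits every value.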
